A study of Mus musculus with 40 samples.

Results

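The red cell lineage was followed through 10 of its genes in 12 lists of chromatin peaks from sorted blood stem and progenitor cells of mice. The genes are 4 regulators of transcription (Gata1, Klf1, Zfpm1 and Nfe2), 2 genes of iron uptake and haem synthesis (Tfrc and Alas2), 2 carbonic anhydrases (Car1 and Car2) and 2 membrane transporters (Aqp1 and Slc4a1), out of 21840 protein-coding genes in the annotation. A peak belonged to a gene if its summit lay within 50 kb of a start site of that gene and no other protein-coding start site was nearer. This rule took 520 of 773134 peaks. The 6 lists of a mark were merged wherever peaks overlapped by 1 bp, and 48 of the 71518 merged regions for H3K27ac and 96 of 181776 for H3K4me1 held a peak of the 10 genes. In 4 of these regions other peaks were nearer to another gene. The nearest start site need not be that of the gene a region acts on.

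H3K27ac (acetylation found at active promoters and enhancers) and H3K4me1 (monomethylation found at active and primed enhancers) were mapped by ChIPmentation, a form of chromatin immunoprecipitation in which Tn5 transposase inserts the adapters. Mice were 21 days old and of 6 genotypes: wild type, Runx1-het, Flt3-ITD, Flt3-ITD/Runx1-het, NUP98-HOXD13 and Flt3-ITD/NUP98-HOXD13. Flt3-ITD is a tandem duplication that activates the receptor kinase FLT3, NUP98-HOXD13 is a leukaemia fusion of a nucleoporin with a homeodomain protein, and RUNX1 is a transcription factor of blood formation. Source names of the Runx1-het samples join Runxf and Vav, and neither their alleles nor the promoter that drives the fusion is given in the sources used here. Each of the 12 combinations of genotype and mark had 3 samples (9 of them) or 4 samples (3 of them) and is represented by a single pooled list. Spread between animals therefore cannot be measured, no p-value is given, and every difference between genotypes below is a difference between 2 lists.

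Red cells arise when progenitors switch on GATA1, which works with its cofactor FOG1, the product of Zfpm1, and with KLF1 to activate globin, haem and membrane genes. Stem and multipotent cells keep many of these genes silent, or primed with enhancer marks ahead of transcription. Nfe2 and Zfpm1 also act in megakaryocytes, and Tfrc serves iron uptake in most dividing cells.

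In these lists 4 of the 10 genes carried most of the marks. Zfpm1, Car2, Nfe2 and Tfrc held 40 of the 48 H3K27ac regions and 82 of the 96 H3K4me1 regions. Gata1 and Slc4a1 had no region of either mark in any list, Alas2 had 1 H3K4me1 region, Car1 had 1 H3K27ac region and Klf1 had 2 regions of each mark. Aqp1 had 5 H3K27ac regions, each in a single list, and 11 H3K4me1 regions. In all, 7 of the 10 genes had an H3K27ac region and 7 an H3K4me1 region. Of all 21840 protein-coding genes 12867 and 15294 had one, so these counts were near the background. The span over which a gene is the nearest differs between them, from 7.32 kb for Klf1 to 89.3 kb for Zfpm1 and 107 kb for Car1.

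**Figure D1:**
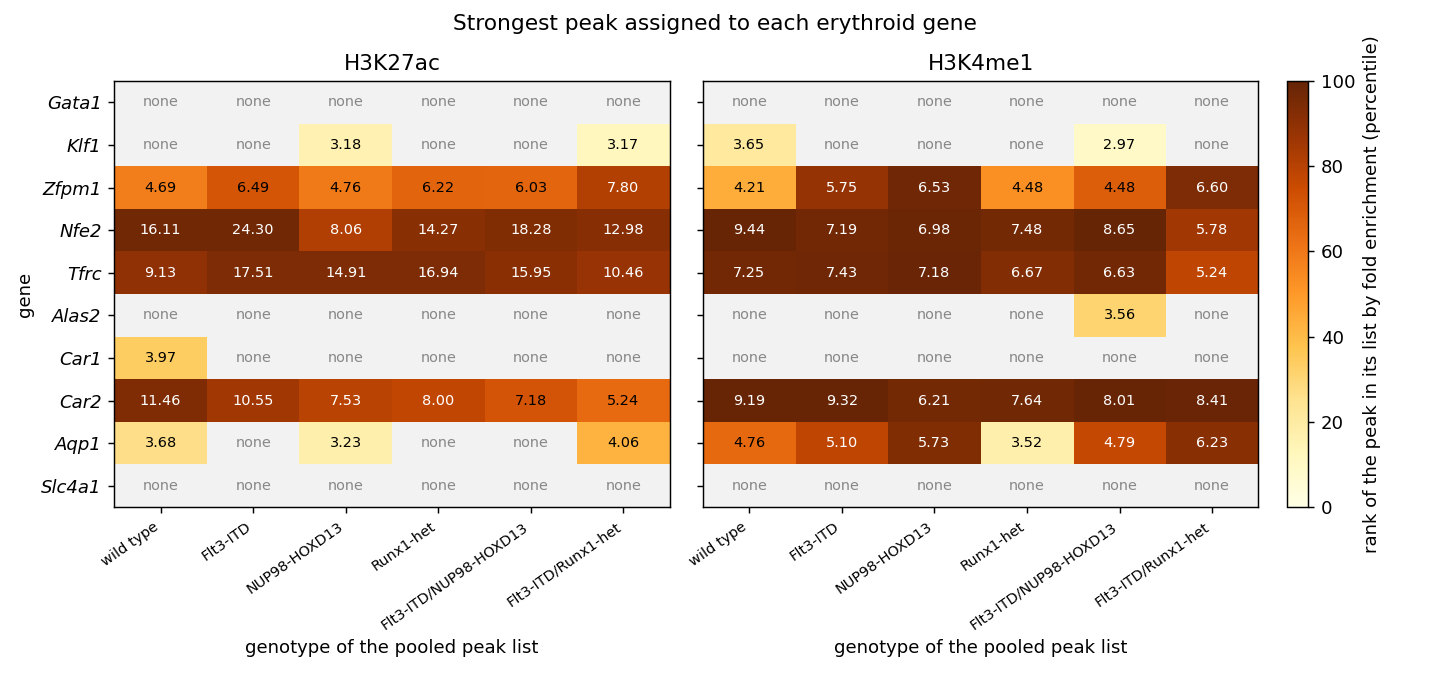
The strongest peak of each gene (rows) in each pooled list (columns), H3K27ac on the left and H3K4me1 on the right. Numbers are the authors' fold enrichment, colours give the rank of the peak within its list as a percentile, and cells marked none had no peak. Nfe2, Tfrc, Car2 and Zfpm1 had a peak in all 12 lists.

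The promoters are shown for 2 genes with a window under H3K27ac (Zfpm1 and Tfrc) and for 3 with a window outside all lists (Gata1, Klf1 and Alas2), because their CpG content differed. Each window runs from 250 bases before to 50 bases after a RefSeq start site (GRCm38.p6), written in the direction of the gene. Capitals mark GGAAGT, the core of an ETS-type motif, in the windows of Zfpm1 and Tfrc. In the window of Alas2 they mark a GATA-type motif, whose letters on the opposite strand are AGATAA.
Zfpm1, chr8:122281891-122282190 (plus strand): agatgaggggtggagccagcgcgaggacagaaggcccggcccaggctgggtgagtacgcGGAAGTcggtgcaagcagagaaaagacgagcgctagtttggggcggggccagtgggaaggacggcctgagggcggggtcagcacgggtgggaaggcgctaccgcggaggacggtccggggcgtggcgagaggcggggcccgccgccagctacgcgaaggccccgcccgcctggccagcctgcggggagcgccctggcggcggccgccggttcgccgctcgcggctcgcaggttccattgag
Tfrc, chr16:32608646-32608945 (plus strand): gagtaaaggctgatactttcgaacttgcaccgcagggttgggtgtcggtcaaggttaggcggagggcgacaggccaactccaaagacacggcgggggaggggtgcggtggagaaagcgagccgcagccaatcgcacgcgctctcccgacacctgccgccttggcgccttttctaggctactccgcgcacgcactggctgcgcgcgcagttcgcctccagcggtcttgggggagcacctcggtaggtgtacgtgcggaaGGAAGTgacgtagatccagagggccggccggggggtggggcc
Gata1, chrX:7967861-7968160 (minus strand): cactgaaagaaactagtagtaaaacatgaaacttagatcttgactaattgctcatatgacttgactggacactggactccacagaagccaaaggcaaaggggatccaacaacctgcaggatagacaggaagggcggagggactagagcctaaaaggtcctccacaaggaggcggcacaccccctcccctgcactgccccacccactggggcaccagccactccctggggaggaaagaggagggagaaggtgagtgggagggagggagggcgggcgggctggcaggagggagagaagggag
Klf1, chr8:84901732-84902031 (plus strand): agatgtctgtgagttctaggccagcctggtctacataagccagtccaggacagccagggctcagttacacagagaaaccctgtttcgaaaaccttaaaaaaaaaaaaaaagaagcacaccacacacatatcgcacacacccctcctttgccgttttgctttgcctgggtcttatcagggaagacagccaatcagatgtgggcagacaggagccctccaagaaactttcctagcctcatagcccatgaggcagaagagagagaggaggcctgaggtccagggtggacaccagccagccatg
Alas2, chrX:150547167-150547466 (plus strand): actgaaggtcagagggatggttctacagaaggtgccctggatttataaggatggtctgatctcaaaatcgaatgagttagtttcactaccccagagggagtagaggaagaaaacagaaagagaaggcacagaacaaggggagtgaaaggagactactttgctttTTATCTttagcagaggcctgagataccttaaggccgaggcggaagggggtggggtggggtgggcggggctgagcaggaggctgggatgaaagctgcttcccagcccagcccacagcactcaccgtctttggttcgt

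RefSeq windows could be matched for 6 of the 10 genes, with 7 windows. Those of Zfpm1 and Tfrc held 37 and 30 CpG dinucleotides, and H3K27ac overlapped them in 4 and 6 lists. Those of Gata1, Klf1, Alas2 and Aqp1 held 4, 3, 6 and 8, and no list of either mark overlapped them. All 32851 windows were split in the same way. H3K27ac overlapped 46.4% (wild type) to 62.5% (Flt3-ITD/NUP98-HOXD13) of the windows with at least 10 CpG and 6.88 to 9.37% of the others. The GATA-type motif of the Alas2 window lies on the opposite strand, 86 bases before the start site, and 11.2% of all windows hold such a motif. GGAAGT, found in the Zfpm1 and Tfrc windows, is in 23.8%. The 7 windows did not hold CCACACCC (a KLF-type motif, 3.56% of all windows), TGTGGTT (a RUNX-type motif, 5.27%), the NF-E2 type motif (0.155%) or the paired E-box and GATA motif (0.362%). Only these exact letters were searched, on both strands, so other forms of the same motif types were neither counted nor capitalised. A match describes letters, not binding, and so does the lack of one.

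H3K27ac stood within 1 kb of a start site of Nfe2, Tfrc and Car2 in all 6 lists, of Zfpm1 in the 5 mutant lists, and of Klf1 and Aqp1 in Flt3-ITD/Runx1-het alone. The number of genes with such a promoter peak was 3 for wild type, 4 for Runx1-het, 4 for Flt3-ITD, 6 for Flt3-ITD/Runx1-het, 4 for NUP98-HOXD13 and 4 for Flt3-ITD/NUP98-HOXD13. Over all protein-coding genes the share was 39.4% for wild type, 39.4% for Runx1-het, 43.0% for Flt3-ITD, 46.1% for Flt3-ITD/Runx1-het, 45.2% for NUP98-HOXD13 and 45.5% for Flt3-ITD/NUP98-HOXD13, so the counts were near the background. Below, values without names follow that order of genotypes. With a −log10 q of at least 5, the Klf1 and Aqp1 peaks dropped out and the Zfpm1 peaks of the 5 mutant lists did not. H3K4me1, which is usually low right at active start sites, stood within 1 kb at 2, 2, 3, 2, 3 and 3 genes (background 20.8%, 20.7%, 27.9%, 30.1%, 28.7% and 30.3%). Nfe2 had it in all 6 lists, with a fold enrichment of 5.78 to 7.48.

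Zfpm1, which encodes the GATA1 cofactor FOG1, had an H3K27ac peak listed within 1 kb of its start site in the mutant lists alone. The H3K27ac region just before its start site (chromosome 8, 122280491 to 122282152) was in the 5 mutant lists and not in wild type. Its fold enrichment, the authors' value for a peak against control, was 5.50 for Runx1-het, 5.42 for Flt3-ITD, 7.09 for Flt3-ITD/Runx1-het, 4.76 for NUP98-HOXD13 and 5.22 for Flt3-ITD/NUP98-HOXD13. Of all H3K27ac regions 1.58% had this pattern, near the 2.08% among the regions of the genes followed here. A second region, with its summit 3.22 kb into the gene (122282622 to 122286912, intronic), was in all 6 lists, at 4.69, 6.22, 6.49, 7.80, 4.31 and 6.03, and with promoters of 2 kb it counted for wild type too. One more, 17.2 kb into the gene (122299212 to 122300313), was in wild type (4.67), Flt3-ITD (3.87) and Flt3-ITD/Runx1-het (3.35).

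In total H3K27ac peaks at Zfpm1 covered 2.04 kb for wild type, 4.05 kb for Runx1-het, 4.27 kb for Flt3-ITD, 8.15 kb for Flt3-ITD/Runx1-het, 5.14 kb for NUP98-HOXD13 and 4.01 kb for Flt3-ITD/NUP98-HOXD13. Wild type was the lowest and Flt3-ITD/Runx1-het the highest, and the other 4 lay between 4.01 and 5.14 kb. Relative to the length of each list the values were closer, with 0.0729 kb for wild type, 0.113 kb for Runx1-het, 0.102 kb for Flt3-ITD, 0.204 kb for Flt3-ITD/Runx1-het, 0.148 kb for NUP98-HOXD13 and 0.0899 kb for Flt3-ITD/NUP98-HOXD13 per Mb of peaks. Zfpm1 is overlapped by the longer model Gm20388, and the peaks before its start site lie in introns of that model. Peaks in the distal part of Zfpm1 are nearer to another start site and were not counted.

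H3K4me1 at Zfpm1 differed still more. Of 45 regions, the number held was 5 for wild type, 3 for Runx1-het, 11 for Flt3-ITD, 37 for Flt3-ITD/Runx1-het, 26 for NUP98-HOXD13 and 14 for Flt3-ITD/NUP98-HOXD13, and no region was in all 6 lists. Against wild type, Flt3-ITD/Runx1-het gained 32 and lost 0, and NUP98-HOXD13 gained 21 and lost 0. Net gains as high were found at 8 and 20 of the 15294 genes with an H3K4me1 region (0.0523% and 0.131%). Genes were not matched here for their span or number of regions, and Zfpm1 had a wide span (89.3 kb) and 45 regions. These 2 lists shared 20 regions, which is 76.9% of those of NUP98-HOXD13 and 54.1% of those of Flt3-ITD/Runx1-het. The region with the highest fold enrichment, 3.99 kb into the gene (122285103 to 122287266), stood at 3.93 in wild type, 4.78 in Flt3-ITD, 6.60 in Flt3-ITD/Runx1-het, 5.25 in NUP98-HOXD13 and 4.03 for its double mutant with Flt3-ITD, and Runx1-het had no peak there. Another, 21.9 kb into the gene (122303002 to 122304264), was in the 5 mutant lists and not in wild type, at 4.48 for Runx1-het, 2.56 for Flt3-ITD, 5.87 for Flt3-ITD/Runx1-het, 6.53 for NUP98-HOXD13 and 3.56 for Flt3-ITD/NUP98-HOXD13. A weak one (122301761 to 122302110) was in the 2 NUP98-HOXD13 lists only (2.46 and 3.75), as were 1.77% of all H3K4me1 regions.

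Most of these H3K4me1 peaks were weak. With a −log10 q of at least 5, 7 regions were left in Flt3-ITD/Runx1-het, 1 in NUP98-HOXD13, 1 in Flt3-ITD and 0 in each of the other 3 lists. With lists of equal length the counts were 5, 3, 8, 23, 22 and 11, and counting a list only where its peaks cover 50% of the region they were 1, 0, 5, 35, 21 and 8. The NUP98-HOXD13 and Flt3-ITD/Runx1-het lists also stood apart over the genome. Their H3K4me1 peaks were the narrowest (median 343 and 296 bp, against 392 to 436 bp), and 7.23% and 17.5% of them passed that q, against 20.6 to 34.0%. Promoter windows with a peak had a median GC content of 50% and 50.7%, against 46.3 to 48.7%. Both lists held 24 and 19 of 36 regions at 6 B cell markers (2 to 10 elsewhere). Of all H3K4me1 regions they held 38.6% and 48.7% (32.0 to 42.6% elsewhere). The B cell count of Flt3-ITD/Runx1-het was near its share of all regions, and that of NUP98-HOXD13 was above it. Both lists also held promoter peaks at Pax6 and Cdx2, genes that are silent in blood, of which Flt3-ITD/NUP98-HOXD13 held that of Pax6. At T and NK cell markers they held 17 and 19 of 33 H3K4me1 regions (10 to 22 elsewhere), at macrophage markers 20 and 23 of 38 (12 to 23), at neutrophil markers 7 and 9 of 19 (5 to 8) and at the non-blood genes 6 and 6 of 16 (1 to 5). The T and NK cell, macrophage and neutrophil markers did not set both lists apart. At the non-blood genes neither count was above that list's share of all H3K4me1 regions. The part of these features in the Zfpm1 counts was not tested.

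**Figure D2:**
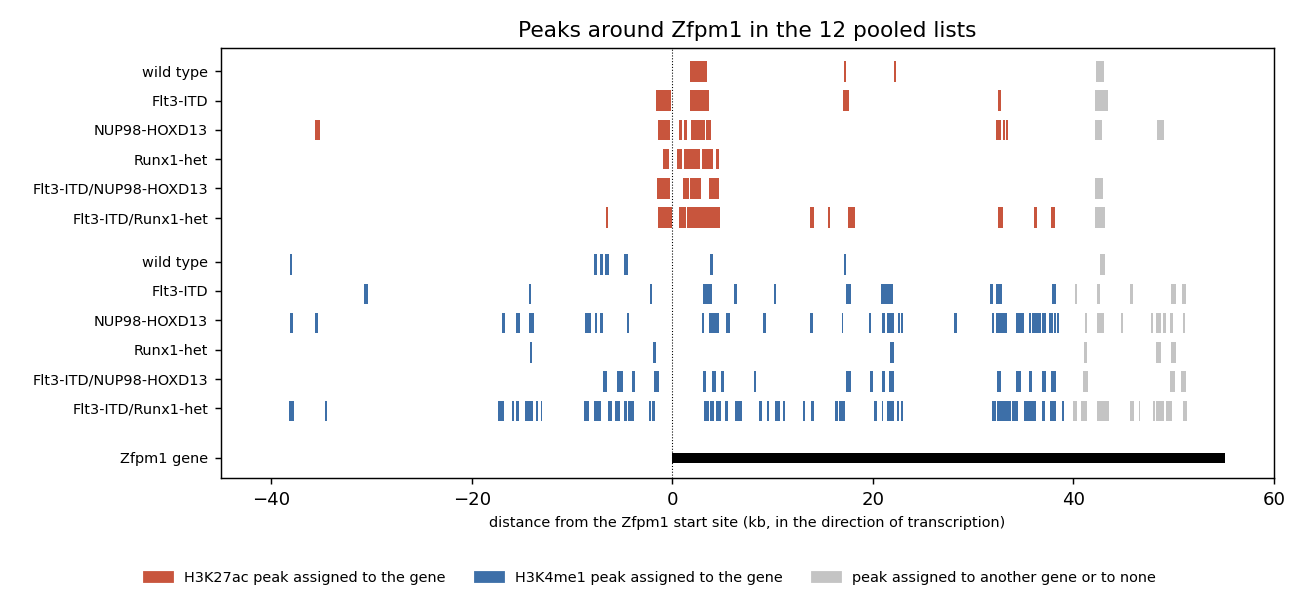
Peaks of the 12 pooled lists around Zfpm1 by distance from its start site in kb, H3K27ac above in red and H3K4me1 below in blue; grey bars belong to another gene or none. H3K27ac stands within 1 kb of the start site in the 5 mutant lists, and NUP98-HOXD13 and Flt3-ITD/Runx1-het hold 26 and 37 H3K4me1 regions against 5 in wild type.

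Nfe2 encodes the blood-specific subunit of the transcription factor NF-E2, and its H3K27ac was the strongest of the 10 genes in 4 of the 6 lists. The fold enrichment of its strongest peak was 16.1 for wild type, 14.3 for Runx1-het, 24.3 for Flt3-ITD, 13 for Flt3-ITD/Runx1-het, 8.06 for NUP98-HOXD13 and 18.3 for Flt3-ITD/NUP98-HOXD13. By rank this peak stood at percentile 81.6 of its list in NUP98-HOXD13 and at 91.4 to 97.2 in the other lists. The peaks merged into a region of 9659 bp (chromosome 15, 103251770 to 103261428) with its summit in an intron, held by all 6 lists. H3K27ac covered 8.18 kb, 9.15 kb, 10.5 kb, 10.7 kb, 8.98 kb and 10.4 kb in all, split into 9 peaks for wild type and 2 to 4 for each mutant. Relative to the total length of each list, the mutants had 0.800 to 0.918 times the coverage of wild type. This was near the background. Over 905 genes with at least 5 kb in wild type the median ratio was 0.881 to 0.952, and 32.8 to 55.1% were as low as Nfe2. These genes, Nfe2 among them, were chosen by their wild-type coverage, which favours low ratios.

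Upstream of Nfe2, between genes, 3 H3K4me1 regions were in the 5 mutant lists and not in wild type, with summits at −3.58, −6.99 and −9.26 kb (minus is upstream). On the last, 5 of 6 peaks were nearer to the start site of Copz1. Of all H3K4me1 regions 2.17% had this pattern. The middle one (103261759 to 103262839) had values of 5.46 for Runx1-het, 6.04 for Flt3-ITD, 4.86 for Flt3-ITD/Runx1-het, 3.57 for NUP98-HOXD13 and 4.75 for Flt3-ITD/NUP98-HOXD13. Wild type did have H3K27ac over that stretch (103261816 to 103262839, 4.69), as did Flt3-ITD (4.24), Flt3-ITD/Runx1-het (2.66) and Flt3-ITD/NUP98-HOXD13 (5.29). H3K27ac at −7.90 kb (103263063 to 103263698) was in wild type (4.84), Flt3-ITD/Runx1-het (5.49) and Flt3-ITD/NUP98-HOXD13 (2.87), and all 6 lists had H3K4me1 there. In total 5 Nfe2 regions held H3K4me1 in all 6 lists, 1 of them in an intron of the neighbour Hnrnpa1, where 4 of 14 peaks were nearest to Nfe2.

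Klf1, the red cell Krüppel-like factor, had weak and isolated peaks. H3K27ac lay in an exon in Flt3-ITD/Runx1-het (84902558 to 84903030 on chromosome 8, 3.17) and in NUP98-HOXD13 (84903260 to 84903547, 3.18). H3K4me1 was listed in wild type before the gene (3.65) and in Flt3-ITD/NUP98-HOXD13 in an intron (2.97). Each of these regions was in a single list, as were 56.3% of the H3K27ac regions of the 10 genes and 52.6% of all H3K27ac regions.

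Gata1, the master regulator of the lineage, had no peak in any list. No H3K27ac region lay in the 172 kb around it and no H3K4me1 region in the surrounding 175 kb. Hdac6, a neighbour known to be widely expressed, likewise lacked a promoter H3K27ac peak in all 6 lists, while Suv39h1 nearby had one in all 6 (4.59 to 9.91). Gata1 and Alas2 lie on the X chromosome, where promoters were listed less often. H3K27ac marked 23.9 to 28.2% of 948 X-linked promoters and 40.4 to 47.4% of 20696 autosomal ones, and H3K4me1 marked 2.32 to 4.11% against 21.7 to 31.9%. The lack of a listed peak there does not show that the mark is absent from these cells. Promoter H3K27ac of the Y-linked genes Ddx3y, Uty, Eif2s3y and Kdm5d was listed in Runx1-het and Flt3-ITD/Runx1-het (5.49 to 28.4) and not in the other 4 lists, so the sex make-up of the pools and these genotypes cannot be told apart. Its part in the differences between lists was not tested.

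Tfrc, the transferrin receptor that brings iron into the cell, held its promoter and 1 upstream region in every list. The promoter region (chromosome 16, 32608011 to 32611524) had an H3K27ac fold enrichment of 9.13 for wild type, 16.9 for Runx1-het, 17.5 for Flt3-ITD, 10.5 for Flt3-ITD/Runx1-het, 14.9 for NUP98-HOXD13 and 15.9 for Flt3-ITD/NUP98-HOXD13. These peaks stood at percentiles 87.7 to 94.1 of their lists. A region at −14.5 kb (32593410 to 32595424, between genes) was in all 6 lists too, at 4.27, 4.86, 3.51, 3.35, 6.53 and 6.39. H3K4me1 peaks of 5.21 to 7.25 overlapped it in all 6. The other 5 H3K27ac regions of Tfrc were in 1 to 3 mutant lists each, the strongest at −15.6 kb in Flt3-ITD/Runx1-het (32593021 to 32593397, 3.94).

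Alas2, the first enzyme of haem synthesis in red cells, had a single peak, H3K4me1 at −35.2 kb in Flt3-ITD/NUP98-HOXD13 (3.56). No H3K27ac region lay in the 108 kb around it.

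**Figure D3:**
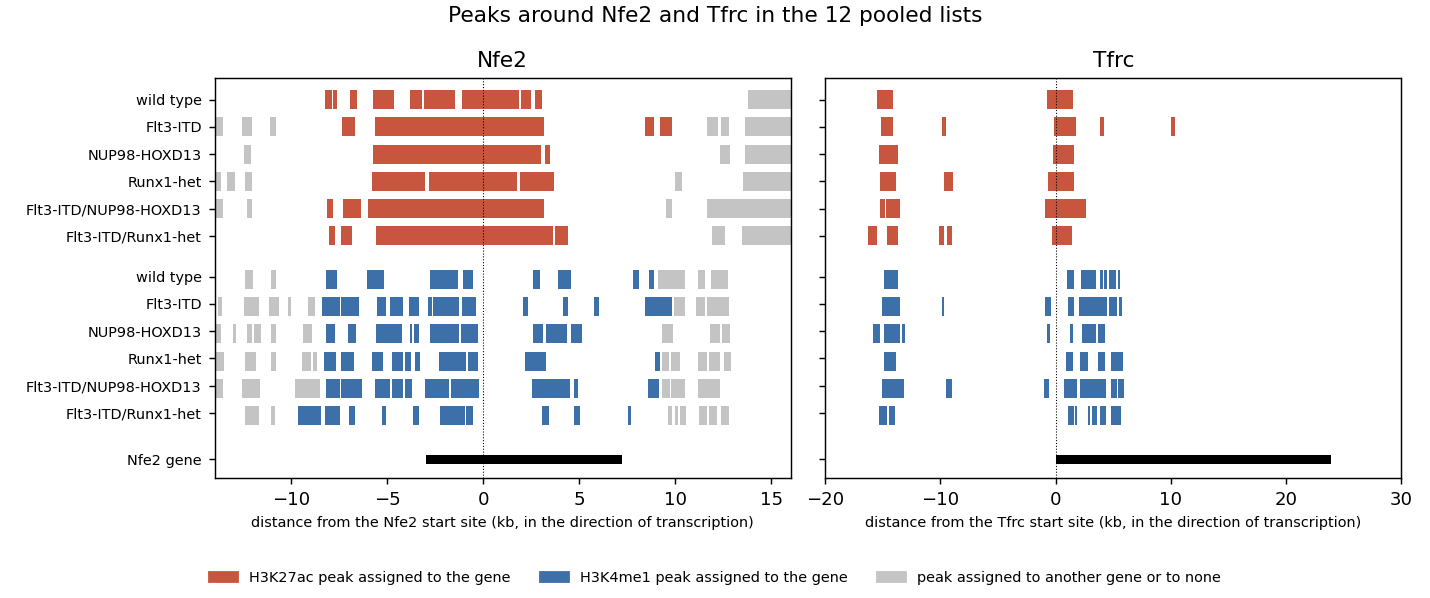
Peaks of the 12 pooled lists around Nfe2 (left) and Tfrc (right) by distance from a start site in kb; red bars are H3K27ac, blue bars H3K4me1, grey bars belong to another gene or none, and black bars are the genes. Nfe2 shows the H3K27ac block of all 6 lists and the upstream H3K4me1 bars, and Tfrc shows the promoter and the region at −14.5 kb in all 6 lists.

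Car2, a carbonic anhydrase of red cells that early progenitors also express, had the most H3K27ac regions, 14. The number held was 8 for wild type, 9 for Runx1-het, 8 for Flt3-ITD, 4 for Flt3-ITD/Runx1-het, 4 for NUP98-HOXD13 and 5 for Flt3-ITD/NUP98-HOXD13. With lists of equal length the counts were 6, 9, 8, 3, 4 and 5, and with a −log10 q of at least 5 they were 5, 6, 4, 2, 1 and 2. Where peaks had to cover 50% of a region they were 6, 9, 7, 1, 2 and 3. Its peaks covered 10.1 kb for wild type, 14.0 kb for Runx1-het, 13.2 kb for Flt3-ITD, 4.43 kb for Flt3-ITD/Runx1-het, 6.78 kb for NUP98-HOXD13 and 7.12 kb for Flt3-ITD/NUP98-HOXD13. Runx1-het and Flt3-ITD thus covered more than wild type, and the double mutant that combines them covered the least. Per Mb of list, the ratio to wild type was 1.08 for Runx1-het, 0.874 for Flt3-ITD, 0.307 for Flt3-ITD/Runx1-het, 0.539 for NUP98-HOXD13 and 0.441 for Flt3-ITD/NUP98-HOXD13. Among the 905 genes with at least 5 kb in wild type the median ratio was 0.881 to 0.952. These genes, Car2 among them, were chosen by the same wild-type coverage that the ratio divides by, which favours low ratios. A ratio as low as that of Car2 was found at 0.442% of these genes in Flt3-ITD/Runx1-het, 6.41% in NUP98-HOXD13 and 2.21% with Flt3-ITD/NUP98-HOXD13.

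The strongest Car2 peak lay over the start of the gene, in a region of 7747 bp (chromosome 3, 14885443 to 14893189) of all 6 lists. Its fold enrichment was 11.5 for wild type, 8.0 for Runx1-het, 10.5 for Flt3-ITD, 5.24 for Flt3-ITD/Runx1-het, 7.53 for NUP98-HOXD13 and 7.18 for Flt3-ITD/NUP98-HOXD13. Its rank within the list stood at percentile 93.6, 77.4, 85.4, 64.2, 79.4 and 72.2, so wild type was the highest and Flt3-ITD/Runx1-het the lowest by both measures. A region beyond the gene, at 26.1 kb (14911397 to 14913917), was also in all 6 lists, at 7.95, 7.16, 4.39, 4.89, 4.22 and 3.56.

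At Car2, 2 H3K27ac regions between genes followed a genotype factor by listed peaks, some of them weak. The one at −6.29 kb (14879463 to 14880311) was absent from both NUP98-HOXD13 lists and present in the other 4, at 7.31 in wild type, 6.46 in Runx1-het, 5.59 in Flt3-ITD and 3.53 in Flt3-ITD/Runx1-het. The one at 29.0 kb (14915030 to 14915688) was absent from the 3 Flt3-ITD lists and present in the other 3, at 6.98 in wild type, 3.33 in Runx1-het and 3.87 in NUP98-HOXD13. Over all H3K27ac regions 0.439% and 0.101% had these patterns. Neither pattern was kept with a −log10 q of at least 5. At −6.29 kb the −log10 q was 2.68 in Flt3-ITD/Runx1-het. At 29.0 kb it was 3.26 in Runx1-het and 2.87 in NUP98-HOXD13. H3K4me1 peaks lay on both stretches in all 6 lists, at 4.42 to 9.19 on the first and 4.21 to 9.32 on the second. Where H3K27ac was not listed, H3K4me1 still was. Flt3-ITD/NUP98-HOXD13 did have H3K27ac peaks on both sides of the stretch at −6.29 kb (14878780 to 14879361 and 14880513 to 14881101). NUP98-HOXD13 had none on either side there.

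Of 17 H3K4me1 regions at Car2, the number held was 15 for wild type, 11 for Runx1-het, 13 for Flt3-ITD, 8 for Flt3-ITD/Runx1-het, 10 for NUP98-HOXD13 and 12 for Flt3-ITD/NUP98-HOXD13, and 6 were in all lists. Per Mb of list the covered length in Flt3-ITD/Runx1-het was 0.439 times that of wild type. Of 1307 genes with at least 5 kb of H3K4me1 in wild type, 14.0% were as low (median ratio 0.771). The choice of these genes has the same limit as for H3K27ac. In the other mutants the ratio was 0.733 to 0.903, and 20.3 to 43.4% of genes were as low. The last H3K27ac peaks inside the limit of 50 kb lay at 30.3 and 30.5 kb (3.35 and 4.54), and the first outside it at 54.9 and 76.0 kb (2.84 and 3.35). Peaks at 83.5 kb in wild type (5.0) and Runx1-het (4.79) were the strongest outside.

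**Figure D4:**
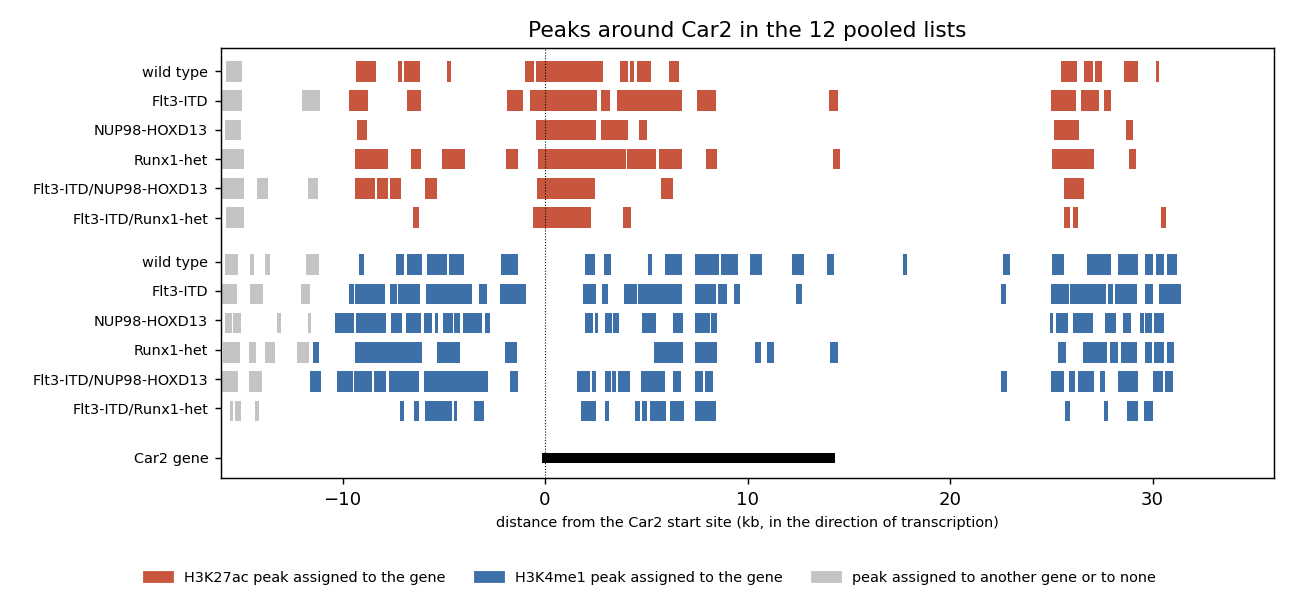
Peaks of the 12 pooled lists around Car2 by distance from its start site in kb, H3K27ac above in red and H3K4me1 below in blue; the black bar is the gene. H3K27ac covers 14.0 kb in Runx1-het and 4.43 kb in Flt3-ITD/Runx1-het, and H3K4me1 stays listed in all 6 lists at −6.29 and 29.0 kb, where 2 and 3 lists lack H3K27ac.

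Car1, the other red cell carbonic anhydrase and a neighbour of Car2 on chromosome 3, had 1 H3K27ac peak, in an intron in wild type (14781083 to 14781417, 3.97). It was 1 of 4 H3K27ac regions in wild type only (8.33% of 48, against 14.0% of all regions). The others were at Car2 (30.3 kb, 3.35), Zfpm1 (22.2 kb, 4.01) and Aqp1 (5.74 kb, 3.68). For H3K4me1, 3 regions were in wild type only, at Car2 (17.8 kb, 3.65), Klf1 (−1.82 kb, 3.65) and Nfe2 (7.96 kb, 3.93), and 6.61% of all regions were.

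Aqp1, the water channel of the red cell membrane, carried H3K4me1 upstream in every list and little H3K27ac. The H3K4me1 regions at −6.04 and −1.18 kb (chromosome 6, 55329817 to 55331322 and 55334033 to 55335645) were in all 6 lists, with a fold enrichment of 2.46 to 6.23 and 2.70 to 5.51. H3K27ac was listed in wild type in an intron (3.68), in NUP98-HOXD13 upstream (3.23) and in Flt3-ITD/Runx1-het at 3 places (3.53, 3.70 and 4.06), and not in the other 3 lists. No H3K27ac peak of Aqp1 reached a −log10 q of 5. Slc4a1, the band 3 anion exchanger of the same membrane, had no peak, and the stretches free of H3K27ac and H3K4me1 regions around it measured 67.0 and 53.5 kb.

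Over the 10 genes together, the lists held 18, 15, 21, 26, 15 and 13 of the 48 H3K27ac regions, and 45.1%, 37.9%, 43.3%, 48.2%, 39.1% and 42.2% of all H3K27ac regions. They held 33, 28, 42, 66, 54 and 46 of the 96 H3K4me1 regions, and 32.5%, 32.0%, 41.7%, 48.7%, 38.6% and 42.6% of all H3K4me1 regions. The H3K4me1 counts of Flt3-ITD/Runx1-het and NUP98-HOXD13 were above the background, at 68.8% and 56.3% of the regions, and include the 37 and 26 regions of Zfpm1. For H3K27ac, the lowest share was 27.1% in Flt3-ITD/NUP98-HOXD13 and the highest 54.2% in Flt3-ITD/Runx1-het.

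Gained regions are those of a mutant list that are not in the wild-type list, and lost ones the reverse; backgrounds are shares of all regions of the mutant list (gained) or wild-type list (lost). For H3K27ac, Runx1-het gained 5 and lost 8 (background 37.0% and 47.1%), Flt3-ITD 11 and 8 (39.6% and 42.0%), Flt3-ITD/Runx1-het 16 and 8 (46.2% and 42.5%), NUP98-HOXD13 7 and 10 (37.2% and 45.5%) and Flt3-ITD/NUP98-HOXD13 3 and 8 (39.4% and 43.3%). Of the changed regions, the gained ones made up 38.5% in Runx1-het (95% Wilson interval 17.7 to 64.5, counting error only), 57.9% in Flt3-ITD (36.3 to 76.9), 66.7% in Flt3-ITD/Runx1-het (46.7 to 82.0), 27.3% for Flt3-ITD/NUP98-HOXD13 (9.75 to 56.6) and 41.2% in NUP98-HOXD13 (21.6 to 64.0). Over all regions it was 39.7%, 47.6%, 53.7%, 45.9% and 41.4%, each inside the interval of the 10 genes. With a −log10 q of at least 5 the share was 80% for Runx1-het and 33.3% for Flt3-ITD/Runx1-het, both on the other side of 50%, and with lists of equal length it was 43.8% for the latter. Shares over all regions were not computed at these settings. The 5 comparisons share the wild-type list.

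Flt3-ITD was also compared on the background of each other mutation. Between Runx1-het and Flt3-ITD/Runx1-het, 17 H3K27ac regions were gained and 6 lost (background 47.3% and 32.9%). All 6 losses were at Car2, and 7 of the gains were at Zfpm1. Between NUP98-HOXD13 and Flt3-ITD/NUP98-HOXD13, 5 were gained, 3 of them at Nfe2, and 7 lost, 4 of them at Zfpm1 (30.6% and 25.1%). The gained share with Runx1-het was 73.9% (53.5 to 87.5), against 64.7% over all regions. It was 43.8% with lists of equal length and 14.3% with a −log10 q of at least 5, both on the other side of 50%. For those settings the share over all regions was not computed.

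At Zfpm1 lay 21 of the 30 H3K4me1 gains of NUP98-HOXD13 and 32 of the 42 of Flt3-ITD/Runx1-het. Runx1-het gained 7 and lost 12 (background 47.5% and 48.4%), Flt3-ITD 17 and 8 (53.0% and 39.8%), Flt3-ITD/Runx1-het 42 and 9 (63.1% and 44.7%), NUP98-HOXD13 30 and 9 (55.4% and 47.1%) and Flt3-ITD/NUP98-HOXD13 20 and 7 (54.5% and 40.5%). The gained share was 82.4% (69.7 to 90.4) in Flt3-ITD/Runx1-het and 76.9% (61.7 to 87.4) in NUP98-HOXD13, against 67.9% and 58.3% over all regions. Without Zfpm1 the shares were 52.6% and 50%, and for all 10 genes at a −log10 q of at least 5 they were 30.8% and 5.88%, on the other side of 50%. At that q 17.5% of the Flt3-ITD/Runx1-het peaks and 7.23% of the NUP98-HOXD13 peaks were left, against 34.0% of wild type. The share over all regions at that q was not computed. Between Runx1-het and Flt3-ITD/Runx1-het 43 were gained, 34 of them at Zfpm1, and 5 lost (62.1% and 42.3%). Between NUP98-HOXD13 and Flt3-ITD/NUP98-HOXD13 10 were gained and 18 lost, 15 of them at Zfpm1 (42.9% and 37.0%). Car2 lost more H3K4me1 regions than it gained in each mutant against wild type, from 3 lost and 1 gained in Flt3-ITD to 7 lost and 0 gained in Flt3-ITD/Runx1-het. Wild type held 15 of its 17 regions, which left little room for gains, so this direction was nearly fixed beforehand. A net change as low was found at 0.739% (Flt3-ITD/Runx1-het) to 6.43% (Flt3-ITD) of 15294 genes, not matched for their number of regions.

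**Figure D5:**
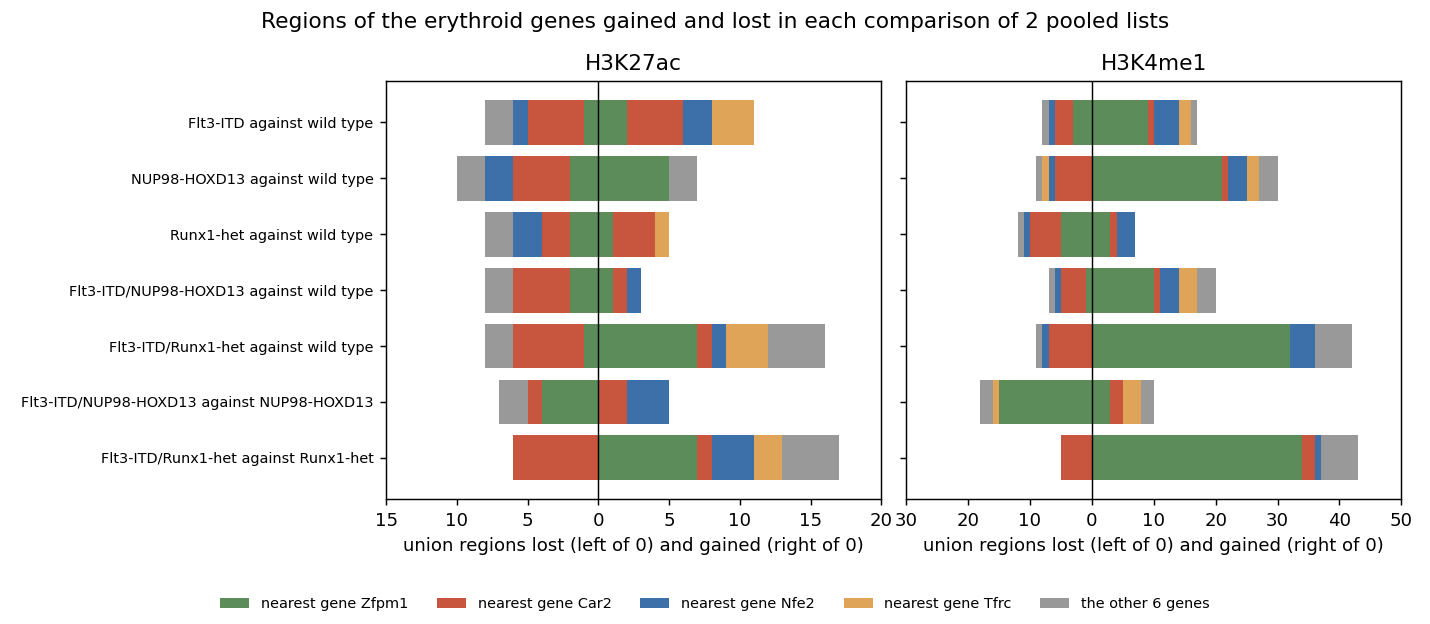
Regions of the 10 genes lost (left of 0) and gained (right of 0) in the 7 comparisons, H3K27ac on the left and H3K4me1 on the right, coloured by nearest gene. Zfpm1 makes up 32 of the 42 H3K4me1 gains of Flt3-ITD/Runx1-het against wild type, and Car2 all 6 H3K27ac losses of that genotype against Runx1-het.

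Active enhancers carry both marks, and primed ones H3K4me1 alone. The H3K4me1 regions counted here are merged over the 6 lists. The 2 marks of a list can therefore lie on different parts of a region, and an overlap need not mean both marks at 1 place. H3K27ac of the same genotype overlapped 16 of 33 H3K4me1 regions of the 10 genes in wild type (48.5%, interval 32.5 to 64.8, background 28.7%), 14 of 28 in Runx1-het (50%, background 30.8%) and 22 of 42 in Flt3-ITD (52.4%, background 32.5%). The counts were 22 of 66 in Flt3-ITD/Runx1-het (33.3%, background 29.8%), 19 of 46 for Flt3-ITD/NUP98-HOXD13 (41.3%, background 33.0%) and 15 of 54 in NUP98-HOXD13 (27.8%, background 32.1%). At Zfpm1 8 of 37 regions in Flt3-ITD/Runx1-het and 3 of 26 in NUP98-HOXD13 were overlapped. At Nfe2 4 to 7 of 6 to 9 regions per list were overlapped, and at Car2 5 to 9 of 8 to 15.

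Promoter H3K27ac was also read by role at a wider list of 51 genes with roles in red cells, not all of them confined to this lineage. Of all protein-coding genes 39.4 to 46.1% had it. Of 10 transcription factors 7 to 9 had it per list, with Lmo2 (22.9 in wild type), Ikzf1 (14.4), Lyl1 (12.9) and Bcl11a (11.9) the highest. Gfi1b, a repressor in red cells and megakaryocytes, had none, and Gata2, the GATA factor of stem cells, had a peak in wild type (5.0), NUP98-HOXD13 (6.02) and Flt3-ITD/NUP98-HOXD13 (5.87) and not in the other 3 lists. Of 7 enzymes of haem synthesis the wild-type list had a peak at 4 and the mutant lists at 5 or 6, among them Ppox at 13.3, Uros at 6.98 and Alad at 5.99 in wild type. Fech, the last enzyme of the pathway, had one in the 5 mutant lists (3.61 to 6.04) and not in wild type. It was named after its values were seen, and the share of all promoters with this pattern is not given here.

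Genes of late red cells were read against the same 39.4 to 46.1% of all protein-coding genes. Of 7 globin genes 1 or 2 had a promoter peak, Hbb-bt in all lists (4.90 to 7.89) and Hbb-bs in NUP98-HOXD13 and both double mutants (2.86 to 3.52). These near-identical neighbours may share reads. Of 13 membrane and skeleton genes 2 or 3 had one, with Epb41 at 14.3 and Gypc at 7.31 in wild type, and of 6 iron and transport genes 1 to 4, with Steap3 at 4.98 and Tfr2 at 4.01. The receptor gene Epor had none, while 5 of the 8 signalling and other genes had one in each list, led in wild type by Hbp1 (18.1), Xpo7 (8.23), Bnip3l (7.31) and Hemgn (6.52).

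Markers of other cell types were read in the same way, against the same 39.4 to 46.1%. Promoter H3K27ac stood at 5 to 8 of 8 progenitor markers and at 1 or 2 of 9 markers of committed red cells (Hbb-bt and Hbb-bs), and Hba-a1, Hba-a2, Epb42, Rhag and Cldn13 had none in any list. B cell markers had it at 2 or 3 of 6, T and NK cell markers at 1 or 2 of 6, neutrophil and macrophage markers at 0 or 1 of 6 each, and non-blood genes at 0 of 6. In pooled cells, fewer cells of a type and a weaker mark per cell cannot be told apart.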

How the data were processed

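H3K27ac and H3K4me1 were mapped by ChIPmentation in sorted cells of mice aged 21 days, 39 samples in 12 groups by the labels, plus 1 input, which was not analysed here. Per the submitters' processing notes, BWA aligned reads to mm10 (GRCm38) and MACS2 called peaks, whose versions and threshold the sources used here do not give. The 12 deposited lists pool the samples of each group. Each gives the authors' score (at most 1000), a ratio (fold enrichment), −log10 p and −log10 q, and the summit position. Read depth is unknown, so no limit from depth is given, and Wilson intervals (95%) cover counting error only.

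Start sites (41421) came from GENCODE mouse release 21. Peaks were assigned by summit to the nearest start site within 50 kb and merged at 1 bp overlap with Python 3.11.15 and pandas 2.3.3. Fold enrichments were never subtracted between lists. The procedure was checked on planted gains and losses. All 10 genes are named. Described regions are the 3 of highest H3K27ac fold enrichment per gene and those that follow a genotype factor, and wider genes are those of highest wild-type promoter fold enrichment per role, of which some are not reported here. Other regions and wider genes that are named were chosen after their values were seen. Genes and lists were chosen with earlier results of these data known. Alternatives were lists of equal length (31978 and 72682 peaks), −log10 q of at least 5, coverage of 50% of a region, 100 kb, peak edges, promoters of 2 kb and the 8 autosomal genes. Peaks of 400 bp and the 9 genes without Zfpm1 were added after seeing the data. Motifs were counted in RefSeq promoters only, since the genome sequence was not used here, so the planned windows at region summits were not run.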

Additional observations from a re-analysis of the deposited data

How the results depend on the processing

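No paired analysis was possible because each group is a single pooled list, and for the same reason leaving out a replicate was not run. Taking peak edges, 100 kb or the 8 autosomal genes moved none of the counts of regions held or gained shares of the 10 genes together by over 1.5 times or past their interval. With 100 kb, 3 of the 12 Car2 counts moved, all for H3K4me1 (23 for wild type, 18 for Runx1-het and 21 for Flt3-ITD). The cause of the changes below was not tested, and gained shares over all regions were not computed for the settings below.

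With a −log10 q of at least 5, the regions held for H3K27ac were 9 for wild type, 10 for Flt3-ITD, 7 for Flt3-ITD/Runx1-het, 6 for NUP98-HOXD13 and 8 for Flt3-ITD/NUP98-HOXD13, and for H3K4me1 20 for Flt3-ITD, 13 for Flt3-ITD/Runx1-het, 8 for NUP98-HOXD13 and 15 for Flt3-ITD/NUP98-HOXD13. The gained share for H3K27ac was 80% for Runx1-het, 20% for NUP98-HOXD13 and 33.3% for Flt3-ITD/Runx1-het against wild type, 100% between NUP98-HOXD13 and Flt3-ITD/NUP98-HOXD13, and 14.3% for Flt3-ITD/Runx1-het against Runx1-het. Of these, all but the 20% crossed 50%. For H3K4me1 it was 5.88% for NUP98-HOXD13, 10% for Flt3-ITD/NUP98-HOXD13, 30.8% for Flt3-ITD/Runx1-het, 37.5% for the last against Runx1-het, 38.5% in Flt3-ITD and 81.8% for Flt3-ITD/NUP98-HOXD13 against NUP98-HOXD13, all across 50%. Promoters with H3K4me1 numbered 1 in NUP98-HOXD13 and in both double mutants, and 5 with promoters of 2 kb in wild type, Runx1-het and both double mutants.

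With lists of equal length, Flt3-ITD/Runx1-het held 13 H3K27ac and 43 H3K4me1 regions, with a gained share of 43.8% and 62.2% against wild type and 43.8% and 71.9% against Runx1-het, where both H3K27ac values crossed 50%. Peaks of 400 bp gave 29 H3K27ac regions in wild type, and coverage of 50% gave 17 H3K4me1 regions in Runx1-het. Without Zfpm1, NUP98-HOXD13 held 9 and 28 regions and Flt3-ITD/Runx1-het 17 and 29 (H3K27ac and H3K4me1). The gained share was then 20% in NUP98-HOXD13 for H3K27ac, and for H3K4me1 50% in NUP98-HOXD13, 52.6% in Flt3-ITD/Runx1-het, 64.3% in the latter against Runx1-het and 70% for Flt3-ITD/NUP98-HOXD13 against NUP98-HOXD13. Depth is unknown, so peaks missing from a list may lie under its threshold.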
